A study of Mus musculus with 3 samples.

Results

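The genes that carry out membrane fusion of secretory granules were read in skin mast cells of 3 embryonic origins. The set holds every row of the table whose symbol names a Vamp protein, a syntaxin (Stx), a syntaxin-binding protein (Stxbp), a Snap protein, a synaptotagmin (Syt), a synaptotagmin-like protein (Sytl), an Unc13 protein, a complexin (Cplx) or a Rab GTPase of secretory granules (the Rab3 genes, Rab27a, Rab27b and Rab37). These are 63 of the 20677 genes listed, or of the 17613 that have a symbol. Members were picked by symbol, by a rule written with earlier results of these data known. A pair of them is not what the name implies: Snap91 encodes a clathrin assembly protein of nerve terminals, and Stxbp3-ps is a pseudogene. Of the 63 members, 40 reached 1 FPKM (fragments per kilobase of transcript, scaled to the mapped fragments of the library) in at least 1 library, 37 did so in all 3, and 23 stayed below it in all 3. Genes such as Syt2 and Syt9 have no row under those symbols, so their levels cannot be read here.

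All mice were of the mixed background C57BL/6xCD1xFVB and 1 week old, and mast cells were sorted from their skin. The early EMP library (early erythro-myeloid progenitor) came from Csf1rCre/EYFP animals given 4'OHT, the active form of tamoxifen, at embryonic day 8.5. The late EMP library came from Runx1Cre/EYFP animals given it at embryonic day 8.5, and the fetal HSC library (haematopoietic stem cell) from Runx1Cre/EYFP animals given it at embryonic day 9.5. EYFP marks cells, and the descendants of cells, in which the driver gene was active at the pulse; the sources used here do not give whether animals were pooled. With 1 library per origin, no difference below can be set against a spread between replicates, and none was tested. Driver line differs between early EMP and the other libraries and cannot be told apart from origin.

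Identity and makeup of the libraries were read first. All 10 mast cell marker genes were present in each library, with summed levels between 180296 and 215622 FPKM. Values below follow the order early EMP, late EMP, fetal HSC wherever 3 stand together. The implied depth was 15.1, 15.3 and 17.3 M fragments, an imprecise estimate from the spacing of low values that came out at 30.1 M for late EMP when a wider range of depths was searched. Xist, the RNA of X inactivation, was at 25.6, 0.53 and 52.0 FPKM and the Y-linked Ddx3y at 20.7, 38.5 and 0.32 FPKM, so sex cannot be told apart from origin either. Markers of dividing cells, 8 of 8 present, summed to 25.9, 154 and 158 FPKM. Neuron and Schwann cell markers with a row, 4 genes, summed to 1.48, 0.63 and 0.59 FPKM, and none reached 1 FPKM. In bulk RNA, fewer cells of a type and less RNA per cell cannot be told apart.

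SNARE proteins drive fusion by zipping into a bundle that joins a vesicle to its target membrane. An R-SNARE (a Vamp) sits on the vesicle, while a syntaxin and a Snap protein supply the Q-SNAREs of the target. Munc18 proteins (Stxbp) hold and guide syntaxins, Munc13 proteins (Unc13) prime the assembly, complexins bind the assembled bundle, and synaptotagmins sense calcium. Rab GTPases and their Sytl effectors bring granules to the plasma membrane beforehand. Mast cells use this machinery to release histamine and proteases when IgE receptors are crosslinked, and granules can fuse with each other as well as with the surface. In humans, UNC13D, STX11, STXBP2 and RAB27A are mutated in inherited disorders of cytotoxic granule release.

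The Vamp, Sytl, Stxbp and Snap families were each led by a single gene. For these 4 leaders, the window from 250 bases before to 50 after the RefSeq transcription start (GRCm38.p6) is shown, because these genes led their families; which start the cells used was not measured. Capitals mark AGATAA, letters bound by GATA factors, and CACGTG or CATGTG, letters bound by Mitf, searched on both strands.
Vamp8 (chr6:72390618-72390917, minus strand): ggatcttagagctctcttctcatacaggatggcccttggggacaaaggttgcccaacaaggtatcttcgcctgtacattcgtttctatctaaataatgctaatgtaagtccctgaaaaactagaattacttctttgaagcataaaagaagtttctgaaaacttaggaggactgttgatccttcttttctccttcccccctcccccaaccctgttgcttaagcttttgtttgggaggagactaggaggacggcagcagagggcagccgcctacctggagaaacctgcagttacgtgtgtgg
Sytl3 (chr17:6658809-6659108, plus strand): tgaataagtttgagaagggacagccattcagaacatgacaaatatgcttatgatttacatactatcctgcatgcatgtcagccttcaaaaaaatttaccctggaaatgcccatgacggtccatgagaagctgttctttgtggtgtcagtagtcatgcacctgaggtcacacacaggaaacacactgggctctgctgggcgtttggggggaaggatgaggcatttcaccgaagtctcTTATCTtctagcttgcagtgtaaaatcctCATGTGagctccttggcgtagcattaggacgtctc
Stxbp2 (chr8:3630859-3631158, plus strand): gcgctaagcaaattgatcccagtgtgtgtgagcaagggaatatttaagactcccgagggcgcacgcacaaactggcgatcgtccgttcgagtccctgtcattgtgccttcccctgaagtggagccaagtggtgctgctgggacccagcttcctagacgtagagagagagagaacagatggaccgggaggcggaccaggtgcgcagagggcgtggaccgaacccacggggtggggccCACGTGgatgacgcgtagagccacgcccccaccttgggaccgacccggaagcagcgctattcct
Snap23 (chr2:120567421-120567720, plus strand): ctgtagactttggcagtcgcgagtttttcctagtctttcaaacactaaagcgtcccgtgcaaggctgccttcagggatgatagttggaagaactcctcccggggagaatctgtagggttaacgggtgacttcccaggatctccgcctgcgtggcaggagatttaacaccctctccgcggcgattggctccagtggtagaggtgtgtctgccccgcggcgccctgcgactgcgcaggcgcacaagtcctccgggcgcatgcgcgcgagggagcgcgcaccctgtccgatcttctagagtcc
Sytl3 held AGATAA in reverse (TTATCT) at position -14 and CATGTG at position 16 from the transcription start, and Stxbp2 held CACGTG at position -14. Neither the Vamp8 nor the Snap23 window held any of these letters. Over 39 windows of 32 of the 40 members, AGATAA was in 2, CACGTG in 5 (Rab27a, Stx6, Stxbp2, Unc13b and Vamp4) and CATGTG in 2. Of all 32851 promoter windows, 11.2%, 7.2% and 14.2% held them. Member windows were not read on 1 chromosome, that of Rab27b, a limit not applied to the 32851. CACGTG reads the same on both strands, and in the windows shown no match overlaps another. A match describes the letters and is not evidence of binding.

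Vamp8 was by far the most abundant R-SNARE and the most abundant member of the whole set. Vamp8, the R-SNARE of late endosomes and of regulated granules in mast cells and platelets (GRCm38 chromosome 6, 72385221 to 72390667), had a level of 469.8 FPKM in early EMP, 294 in late EMP and 386 in fetal HSC. It made up 77.3%, 70.7% and 76.2% of the summed Vamp level. It stood above 98.9%, 98.1% and 98.5% of the genes with a symbol at 1 FPKM or more in the same library. The early EMP library was the highest and late EMP the lowest, and the log2 differences from early EMP were -0.68 for late EMP and -0.28 for fetal HSC, here and below computed after adding 1 FPKM to each value. Vamp5, which lies close to it on chromosome 6 and is best known from muscle, was at 5.36, 9.62 and 6.75 FPKM. The lowest and highest libraries were thus interchanged between these neighbours, with Vamp5 highest in late EMP.

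Vamp3, the R-SNARE of recycling endosomes (chromosome 4), came next in the Vamp family in all 3 libraries. It was at 51.5, 58.6 and 58.2 FPKM, and its libraries lay close together. Vamp4, of the trans-Golgi network, was at 36.8, 18.1 and 26.7 FPKM, with early EMP highest and late EMP lowest. Its log2 difference between late and early EMP, -0.98, was just short of 2-fold, and it passed 2-fold when libraries were scaled by median-of-ratios factors. Vamp2, the synaptobrevin of synaptic vesicles (chromosome 11, 69088528 to 69092381), was at 27.1, 16.4 and 10.7 FPKM. Early EMP was highest and fetal HSC lowest, and the ratio of Vamp3 to Vamp2 was 1.90, 3.57 and 5.43. Vamp7, of late endosomes and lysosomes, differed least of the family, at 17.3, 18.1 and 17.5 FPKM. Vamp1, the other synaptobrevin, was below 1 FPKM throughout, at 0.15, 0.79 and 0.89.

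**Figure D1:**
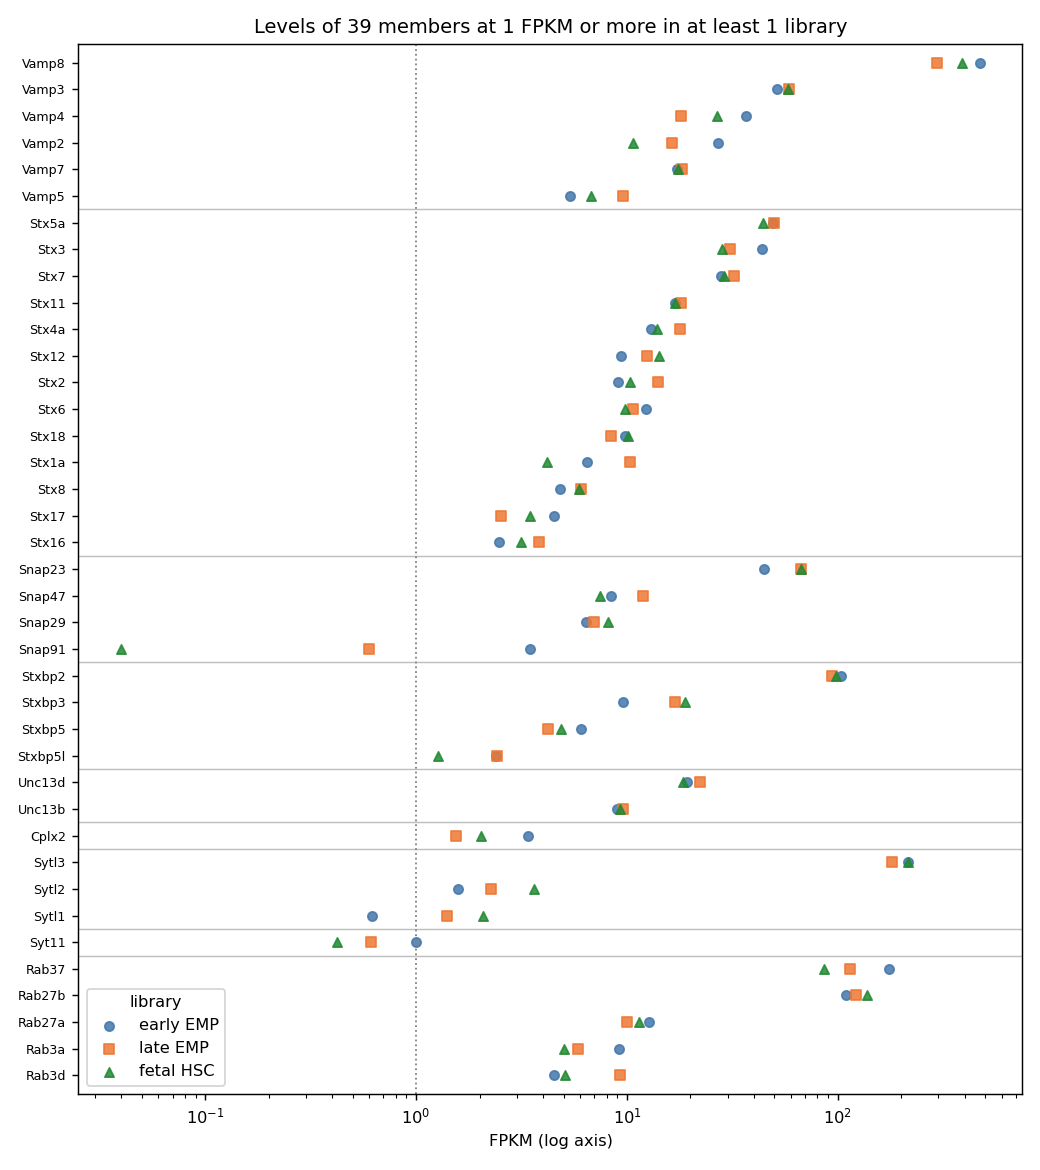
FPKM (horizontal, log axis) of 39 of the 40 members that reached 1 FPKM in at least 1 library, grouped by family between grey lines, with 1 symbol per library. Vamp8, Sytl3, Rab37, Rab27b and Stxbp2 lie furthest right, and Snap91 has the widest range, with values of 3.47, 0.60 and 0.04.

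No syntaxin dominated. Of 14 syntaxins, 13 reached 1 FPKM, and the 6 that act mainly at the plasma membrane (Stx1a, Stx2, Stx3, Stx4a, Stx11 and Stx19) summed to 89.2, 91.2 and 74.1 FPKM against 120.2, 126 and 119.6 for the 8 of internal membranes. Stx3, a plasma membrane and granule syntaxin (chromosome 19, 11775118 to 11821569), led the first group at 43.8, 30.8 and 28.1 FPKM. Its share of that group was 49.1% in early EMP, 33.7% in late EMP and 38.0% in fetal HSC, and its ratio to Stx4a was 3.38, 1.73 and 2.02. Stx4a, the syntaxin of the general cell surface, was at 13.0, 17.8 and 13.9 FPKM, so that late EMP was highest. Stx11, known from cytotoxic granules, was nearly level at 16.9, 17.9 and 17.0 FPKM. Stx2 was at 9.08, 14.0 and 10.3 FPKM, again with late EMP highest.

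Stx1a, the syntaxin of nerve terminals (chromosome 5, 135023482 to 135051100), was at 6.47, 10.3 and 4.17 FPKM. Late EMP was highest and fetal HSC lowest, and the log2 difference of fetal HSC from late EMP was -1.13. Stx19, at 0.00, 0.36 and 0.55 FPKM, was below 1 FPKM in every library. Among internal syntaxins Stx5a, which serves traffic between endoplasmic reticulum and Golgi, led all syntaxins at 49.1, 49.7 and 44.1 FPKM, and Stx7, of late endosomes, followed at 27.9, 32.2 and 28.9 FPKM. Both had libraries close together. Stx12, of recycling endosomes, was lowest in early EMP at 9.35 FPKM, against 12.5 and 14.2 FPKM. The remaining internal syntaxins Stx6, Stx8, Stx16, Stx17 and Stx18 lay between 2.47 and 12.3 FPKM, and Stx17, which acts on autophagosomes, differed most of them at 4.51, 2.53 and 3.45 FPKM.

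Snap23 was the main Qbc-SNARE, the kind that supplies a pair of helices to the bundle. Snap23, the non-neuronal counterpart of Snap25 (chromosome 2, 120567655 to 120601255), was at 44.6, 67.1 and 67.0 FPKM. Early EMP was the low library, while the other libraries were level, and the log2 difference from early EMP was 0.58 in both. It made up 74.8%, 77.8% and 81.2% of the summed level of the 4 Qbc genes. Snap47 was at 8.37, 11.9 and 7.42 FPKM and Snap29, of internal membranes, at 6.41, 7.01 and 8.10 FPKM. Snap25, the SNARE of neurons, was at 0.23 and 0.26 FPKM in the EMP libraries and listed at 0 in fetal HSC. The clathrin assembly gene Snap91 (chromosome 9, 86765923 to 86880734) was at 3.47, 0.60 and 0.04 FPKM, from about 203, 35 and 3 implied fragments, and had the widest range of any member that reached 1 FPKM.

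Stxbp2, or Munc18-2, was the most abundant gene of the Stxbp family. Stxbp2, which binds Stx3 and Stx11 (chromosome 8, 3630960 to 3643998), was at 104, 93.9 and 98.1 FPKM, or 83.5%, 78.0% and 77.1% of the summed Stxbp level. Its 3 libraries differed little. Stxbp3, the Munc18 protein that binds Stx4 (chromosome 3, 108793180 to 108840502), was at 9.57, 16.9 and 18.9 FPKM, with early EMP lowest. The log2 differences of Stxbp3 from early EMP were 0.76 and 0.92, and the ratio of Stxbp2 to Stxbp3 was 10.8, 5.57 and 5.18. Its pseudogene Stxbp3-ps was listed at 0.62, 0.40 and 0.44 FPKM, and the pair summed to 10.2, 17.2 and 19.4 FPKM. Stxbp5, a tomosyn that holds syntaxin and Snap proteins back from fusion, was at 6.08, 4.24 and 4.87 FPKM, and its relative Stxbp5l at 2.40, 2.41 and 1.27 FPKM. Stxbp4, at 0.19, 0.87 and 0.86 FPKM, and Stxbp6, at 0.12, 0.17 and 0.22 FPKM, stayed below 1 FPKM.

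Priming proteins were level across the libraries. Unc13d, or Munc13-4, an effector of Rab27 on granules (chromosome 11, 116062095 to 116078495), was at 19.4, 22.1 and 18.5 FPKM, and Unc13b, or Munc13-2, at 8.98, 9.60 and 9.24 FPKM. Unc13d exceeded Unc13b in every library, at ratios of 2.16, 2.30 and 2.0, and the neuronal Unc13a was at 0.08 FPKM or less. Cplx2, a complexin, was at 3.39, 1.54 and 2.03 FPKM, with early EMP highest.

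Synaptotagmins with a row were at very low levels, while a synaptotagmin-like gene was among the most abundant members. All 14 synaptotagmins with a row, which do not include Syt2 and Syt9, summed to 1.62, 2.19 and 0.54 FPKM, from about 95, 102 and 40 implied fragments. Syt11, a synaptotagmin that does not sense calcium, was the highest in each library at 1.00, 0.61 and 0.42 FPKM. The neuronal Syt1 was at 0.10 FPKM in late EMP and listed at 0 in the others, and Syt7, a sensor of lysosome and granule fusion, was at 0.06 FPKM in late EMP, about 1 implied fragment, and likewise listed at 0 elsewhere. In all, 7 synaptotagmins were listed at 0 in early EMP, 2 in late EMP and 9 in fetal HSC, and 0 of the 14 in every library. At this depth such values do not separate absence from a low level. Whether genes at 0 in every library were left without a row is not known.

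Sytl3, or Slp3, which carries C2 domains like a synaptotagmin and binds Rab27 (chromosome 17, 6658133 to 6738070), was at 216, 181 and 214 FPKM. It made up 98.8%, 97.8% and 97.4% of the summed Sytl level, and late EMP was the low library. Sytl2, known from melanocytes and cytotoxic cells, was at 1.58, 2.26 and 3.62 FPKM, and Sytl1 at 0.62, 1.40 and 2.08 FPKM. Both were lowest in early EMP and highest in fetal HSC. Melanocyte markers, of which 6 of 7 reached 1 FPKM, had summed levels in the same order. They came to 31.8, 39.5 and 64.7 FPKM with Mitf, which mast cells also express and which was at 30.2, 25.8 and 23.6 FPKM, and to 1.59, 13.8 and 41.1 FPKM without it, with Mlana and Sox10 at 0 in early EMP. Markers of cytotoxic and innate lymphoid cells, 7 of 8 with a row, summed to 139, 158 and 375 FPKM. Nkg7 was the largest at 112, 117 and 308 FPKM. Gzma was at 0 in both EMP libraries, and Cd3e had another order at 13.5, 0.00 and 0.63 FPKM. Granulocyte precursor markers, 5 of 6 with a row, summed to 3.10, 53.3 and 126 FPKM, with S100a8 at 0 in late EMP and Ly6g at 0 in late EMP and fetal HSC. The part of these cells in the Sytl values was not tested. Sytl4, or granuphilin, was at 0.49 and 0.37 FPKM in the EMP libraries and listed at 0 in fetal HSC.

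Rab37 and Rab27b together made up most of the granule Rabs, in changing proportion. Rab37, a Rab of mast cell granules (chromosome 11, 115091331 to 115162773), was at 174, 115 and 85.7 FPKM. Rab27b, which docks granules in mast cells and platelets, was at 109.6, 122 and 137 FPKM. Early EMP was therefore highest for Rab37 and lowest for Rab27b, and the ratio of Rab37 to Rab27b was 1.59, 0.94 and 0.63, a ratio formed after the values were seen and independent of how a library is scaled. Rab37 led the family with 56.1% of its summed level in early EMP, whereas Rab27b led with 46.6% in late EMP and 56.1% in fetal HSC. Rab27a, the Rab of melanosomes and cytotoxic granules, was at 12.7, 9.96 and 11.4 FPKM, so that Rab27b was 8.65, 12.3 and 12.0 times as high. Rab3a, the Rab of synaptic vesicles (chromosome 8), was at 9.20, 5.86 and 5.04 FPKM, and Rab3d, found on granules of mast cells and exocrine glands, at 4.51, 9.27 and 5.06 FPKM. Rab3a shares 29 exon bases with Mpv17l2 on the opposite strand, which was at 46.4, 36.2 and 25.3 FPKM. Rab3a was the higher Rab3 gene in early EMP and Rab3d in late EMP, and they were level in fetal HSC. Rab3b and Rab3c were at 0.26 FPKM or less.

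**Figure D2:**
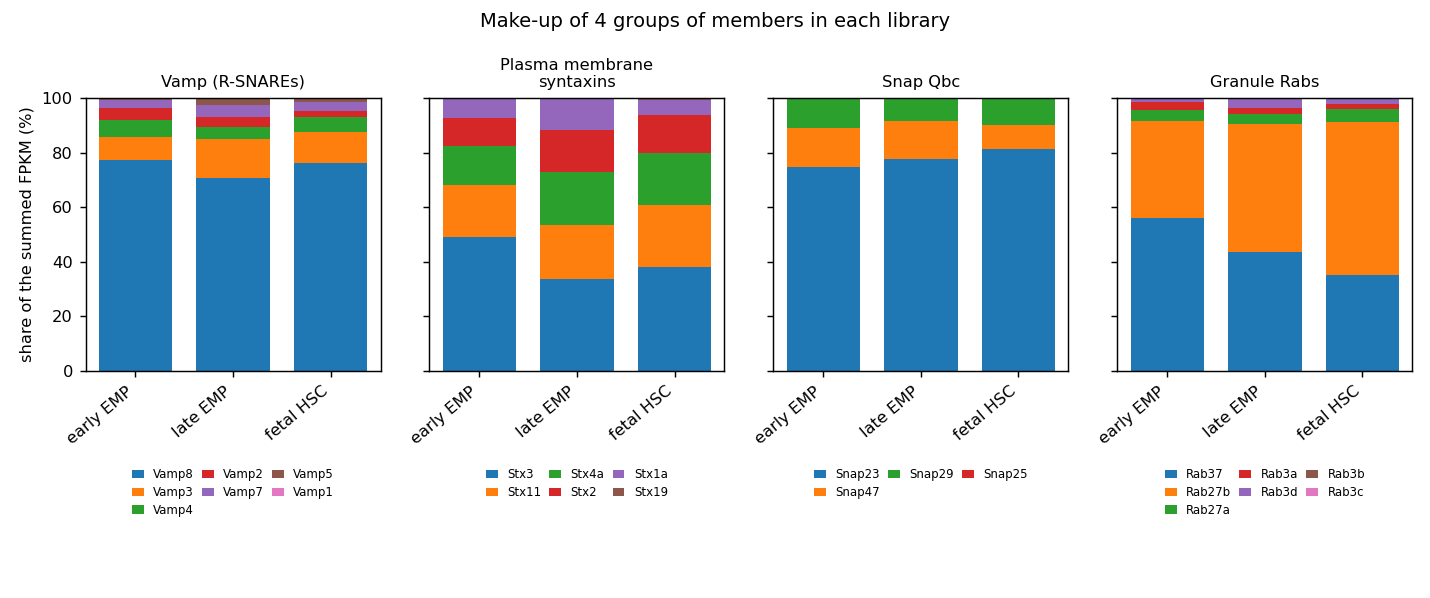
Share of the summed FPKM (vertical, percent) taken by each member of the Vamp family, the plasma membrane syntaxins, the Qbc Snap genes and the granule Rabs, with 1 bar per library. Vamp8 and Snap23 take most of their groups in every library, while the share of Rab37 is 56.1%, 43.7% and 35.1% and that of Rab27b is 35.3%, 46.6% and 56.1%.

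Late EMP over early EMP asks whether mast cells marked by the later progenitor wave carry another fusion machinery. None of the 40 members was at least 2-fold higher in late EMP, where 7.55% of the 11529 expressed genes with a symbol were, and 1 was at least 2-fold lower (2.5%), where 4.24% of all such genes were. That member was Snap91, with a log2 difference of -1.48. The median log2 difference of the members was 0.07 against 0.06 for all such genes. Closest to the 2-fold line were Vamp4 (-0.98), Rab3d (0.90), Cplx2 (-0.79), Stxbp3 (0.76) and Vamp5 (0.74), the last from about 34 and 61 implied fragments.

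Fetal HSC over early EMP compares cells that differ in both driver and pulse day, and in the levels of Xist and Ddx3y. Again none of the 40 members was at least 2-fold higher, with 8.08% of expressed genes with a symbol so, and 3 were at least 2-fold lower (7.5%), with 8.59% of such genes so. These were Vamp2 (log2 -1.26), Rab37 (-1.02) and Snap91 (-2.10). The share depended on level: of the 31 members that reached 5 FPKM, 2 were lower (6.45%), where 6.05% of genes at that level were, and of the 13 that reached 20 FPKM the same 2, Rab37 and Vamp2, were lower (15.4%), where 3.65% were. Rab37 lay just past the line, and with median-of-ratios factors it was at -0.93. Sytl1 (0.93), Stxbp3 (0.92) and Sytl2 (0.84) had the largest differences upward. The median log2 difference of the members was 0.00 and that of all such genes -0.03. Both comparisons with early EMP use the same early EMP library.

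The fetal HSC and late EMP libraries share the Runx1-driven Cre and differ in the day of the pulse. They are also opposite in the sex-linked Xist and Ddx3y. No member was at least 2-fold higher (2.71% of expressed genes with a symbol were) and 1 was at least 2-fold lower, against 5.35% of such genes. That member was Stx1a, at a log2 difference of -1.13, and Rab3d came next at -0.76. The median log2 difference of the members was -0.05 against -0.08 for all such genes.

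**Figure D3:**
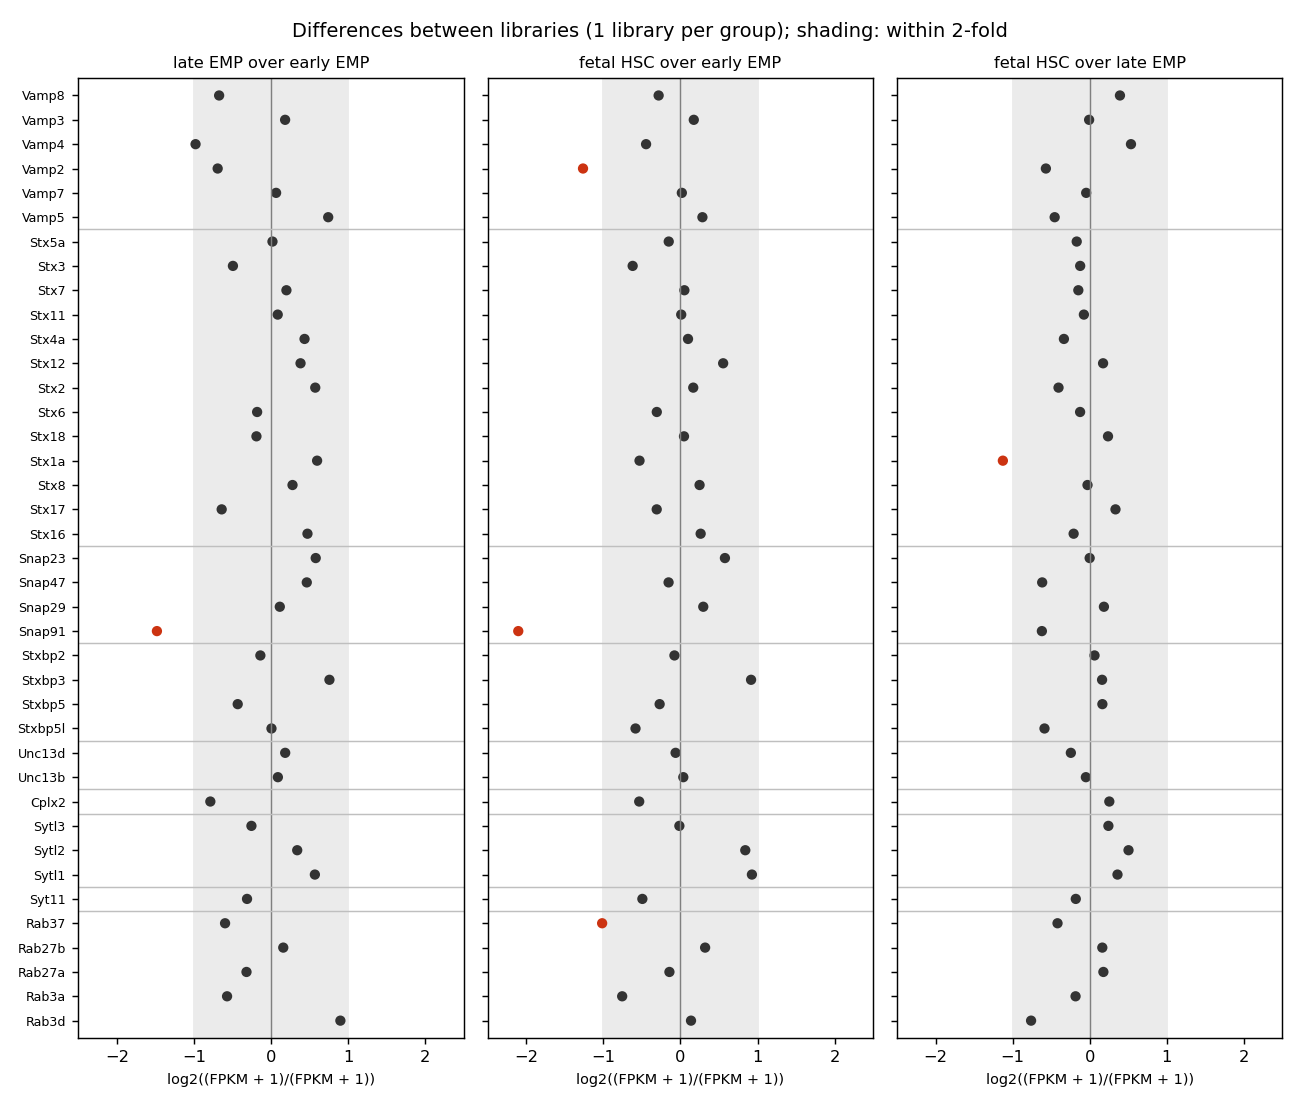
Difference of each of 39 members between libraries, as log2 of the ratio after adding 1 FPKM (horizontal), for the 3 comparisons, with shading for less than 2-fold and red points beyond it. Red points are Snap91 (left), Vamp2, Snap91 and Rab37 (middle) and Stx1a (right), and all lie on the lower side.

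Taken over the 3 libraries, 4 of the 40 members had a highest value at least 2-fold above the lowest (Rab37, Vamp2, Stx1a and Snap91), where 24.2% of expressed genes with a symbol did. The range depended on level, so members were set beside genes of like level. Among the 13 members that reached 20 FPKM, the median log2 range over the libraries was 0.32, against 0.45 for the 3508 genes at that level. For the 18 members between 5 and 20 FPKM it was 0.43 against 0.59 for 4331 genes, and for the 9 between 1 and 5 FPKM it was 0.64 against 0.85 for 3690 genes. These medians are descriptions, and no test stands behind them.

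Some members differed in order over the libraries. Rab37, Stx3, Vamp2, Rab3a and Snap91, 5 of 40 (12.5%), were highest in early EMP and lowest in fetal HSC with late EMP between and at least 1.5-fold from end to end, as were 12.7% of expressed genes with a symbol. In the reverse order were Stxbp3, Sytl2 and Sytl1, 3 of 40 (7.5%), where 10.7% of such genes were. Neither share is above the background. With median-of-ratios factors late EMP and fetal HSC were level for Stx3 (log2 0.01). The summed levels of macrophage markers, 8 of 8 present, were in the same order as these 5 genes at 117, 94.5 and 67.7 FPKM, but not all markers were. C1qa, C1qb, C1qc, Csf1r and Mrc1 had that order, while Lyz2, the most abundant, was at 37.6, 39.8 and 44.8 FPKM, Adgre1 at 0.50, 2.18 and 0.04 FPKM and Cd68 at 17.8, 6.44 and 9.70 FPKM. Platelet markers, 4 of 6 at 1 FPKM or more, summed to 75.4, 59.1 and 19.1 FPKM, most of it Pf4 and Itga2b. Gp5, of that list, was highest in late EMP at 1.43 FPKM, and Ppbp and Gp1bb were at 0 in early EMP and fetal HSC. The part of such cells in the ordered members was not tested.

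**Figure D4:**
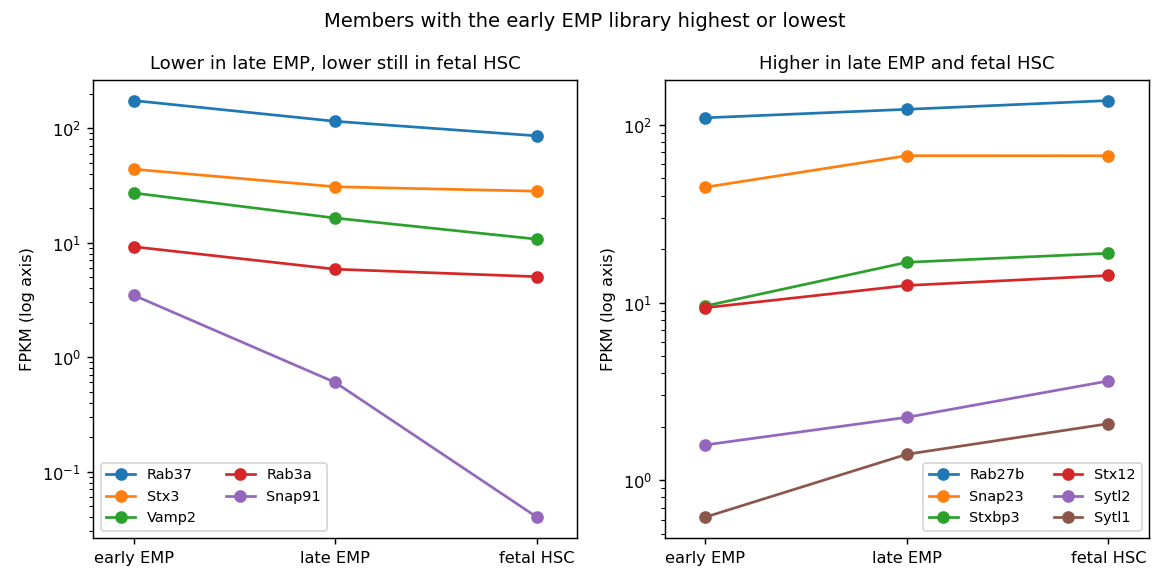
FPKM (vertical, log axis) in the 3 libraries for members with early EMP highest and fetal HSC lowest (left) and for members lowest in early EMP (right), 1 line per gene; the genes drawn were chosen after their values were seen. On the left Rab37 goes from 174 to 85.7 FPKM and Vamp2 from 27.1 to 10.7 FPKM, and on the right Stxbp3 goes from 9.57 to 18.9 FPKM and Rab27b from 109.6 to 137 FPKM.

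The partners of these proteins were read from lists of other genes of the pathway. Each count below stands beside the same share over all expressed genes with a symbol, and with lists this short a share turns on 1 or 2 genes. None of 12 SNAREs with other names, which serve the endoplasmic reticulum, Golgi and endosomes, was 2-fold apart in any comparison, and Sec22b, of the endoplasmic reticulum, was at 79.7, 77.5 and 79.4 FPKM. Closest to 2-fold was Bet1l, of the Golgi, at 43.7, 21.8 and 35.5 FPKM (log2 -0.97 for late over early EMP). None of 9 exocyst subunits, which tether vesicles at the plasma membrane, was 2-fold apart either. Of 15 genes for SNARE recycling and assembly, 1 was lower in fetal HSC than in early EMP (6.67%, against 8.59% of all such genes) and none was 2-fold apart otherwise. That gene was Napb, the brain form of an adaptor that helps take SNARE bundles apart, at 2.42, 0.80 and 0.01 FPKM, while Napa, its general form, was at 65.5, 75.8 and 80.0 FPKM.

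Regulators of the Rabs were read next. Of 12 expressed effectors and regulators of Rab3 and Rab27, 1 was higher in late EMP than in early EMP (8.33%, against 7.55% of all such genes) and none was lower (against 4.24%). In fetal HSC 1 was higher than in early EMP (8.33% against 8.08%) and 2 were lower (16.7% against 8.59%). The gene higher in both was Chm, an escort protein that presents Rabs for lipid attachment, at 3.24, 8.09 and 7.67 FPKM. Rab3ip and Rab3il1, which activate Rabs, were the lower ones, at 1.23, 1.51 and 0.00 FPKM and at 3.98, 2.64 and 0.67 FPKM. Between fetal HSC and late EMP none was higher (against 2.71%) and 3 genes of this list were lower (25% against 5.35%), Rab3ip, Rab3il1 and Rab3gap2. The last of these, from the Rab3 GTPase-activating complex, was at 28.8 FPKM in late EMP and 13.6 in fetal HSC.

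Among other C2-domain proteins the 3 extended synaptotagmins were abundant, and the rest were not. Esyt1, an extended synaptotagmin that tethers the endoplasmic reticulum to the plasma membrane, was at 69.5, 83.1 and 64.5 FPKM, Esyt2 at 24.7, 36.0 and 47.8 FPKM and Esyt3 at 31.0, 60.1 and 30.8 FPKM. Of 6 expressed genes of that list, 2 were lower in fetal HSC than in early EMP (33.3%, against 8.59% of all such genes) and none was 2-fold apart otherwise. These were Dysf, at 1.48, 0.69 and 0.04 FPKM, and Myof, at 1.49, 0.44 and 0.13 FPKM. Doc2a, a calcium sensor of nerve terminals, was at 2.51, 1.51 and 0.83 FPKM, while Cadps, which primes dense-core vesicles, Cadps2 and Doc2g stayed at 0.68 FPKM or less.

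Among 14 other Rabs of granules, lysosomes and endosomes, 3 were higher in late EMP than in early EMP (21.4%, against 7.55% of all such genes) and 1 was lower (7.14% against 4.24%). In fetal HSC 1 was higher than in early EMP (7.14% against 8.08%) and 1 was lower (7.14% against 8.59%), and against late EMP 2 were lower (14.3% against 5.35%) and none higher (against 2.71%). Rab7, of late endosomes and lysosomes, led at 220.5, 228 and 256 FPKM, followed by Rab32, of lysosome-related organelles, at 109, 148 and 143 FPKM. Rab44, a large Rab of mast cells, was level at 82.1, 96.4 and 82.1 FPKM. Rab8b, of exocytic transport, was higher in both than in early EMP at 19.6, 43.2 and 54.2 FPKM, and Rab12 was lower in both at 6.10, 1.42 and 2.13 FPKM. Rab5b, of early endosomes, and Rab38, of melanosomes, stood out in late EMP from both other libraries, at 12.3, 27.5 and 10.1 FPKM and at 1.00, 3.47 and 0.94 FPKM. Of 17 genes for granule biogenesis, 1 was 2-fold higher in late EMP than in early EMP (5.88% against 7.55%), Hps5, at 7.33 against 3.11 FPKM, and none was 2-fold apart otherwise. Of 11 expressed secretory carrier and granule membrane genes, none was 2-fold apart between late and early EMP, 2 were lower in fetal HSC than in early EMP (18.2% against 8.59%) and 1 of them, Syp, was lower in fetal HSC than in late EMP (9.09% against 5.35%). These were Syngr1, a synaptogyrin, at 90.2, 55.5 and 38.2 FPKM, and Syp, synaptophysin of synaptic vesicles, at 4.03, 3.42 and 0.85 FPKM.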

How the data were processed

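RNA of skin mast cells from 3 origins was read in 1 library each. The authors deposited FPKM values per gene, per the file headers; the submitters' processing notes name the aligner Bowtie2, the quantifier RSEM and the builds GRCm38 and mm10, without versions. Whether counting used strand is not stated; of the members at 5 FPKM or more, Rab3a, Rab27a, Snap29, Stx18 and Sytl3 share annotated exon bases with another gene, from 4 to 574 bases. Columns were matched through the labels' descriptions. Members and lists were chosen with earlier results of these data known.

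Genes at 1 FPKM or more in at least 1 library were kept, 14412 in all and 11529 with a symbol. Differences are log2((FPKM + 1)/(FPKM + 1)), a scale that shrinks differences of low genes, and 2-fold was the line. Members at 1 FPKM were named, with full sentences for those at 20 FPKM or 2-fold apart; list genes were the 2 most abundant and the 2 most different at 5 FPKM or more, with a few lower ones named after their values were seen; a few genes that enter the counts and sums are not reported here. Sequencing depth, which no source used here gives, was implied from values of genes with 1 transcript, of which 72.2%, 74.1% and 69.7% lay within 0.15 of a whole fragment, where 30% would by chance for a fixed step; the step was fitted, so fragment numbers are approximate. Depths from 6 to 45 M were searched first and gave 15.1, 30.1 and 17.3 M; the range was narrowed to 8 to 22 M after the late EMP value was seen to be about double the others, although its share within 0.15 was higher there, at 78.5% of 107 values against 74.1% of 525. Late EMP fragment numbers may therefore be about double those given. Coordinates and promoters come from RefSeq (GRCm38.p6), where all 63 members matched, and transcript lengths and exons from GENCODE M21. Counting folds was tested on simulated data. Alternatives were other pseudocounts, filters and scalings, genes with a symbol only, a 4-fold line and, added after the values were seen, the members without Snap91 and Stxbp3-ps. Python 3.11.15, numpy 2.4.6, pandas 2.3.3 and matplotlib 3.10.9 were used.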

Additional observations from a re-analysis of the deposited data

How the results depend on the processing

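No paired analysis was possible because each origin has 1 library. Directions did not reverse for any member 2-fold apart under the alternatives run, but counts this small moved. For late EMP over early EMP, the count of members lower (1 as reported) was 0 with a pseudocount of 5 FPKM, with the filter at 5 FPKM, at 4-fold and without Snap91 and Stxbp3-ps (a choice added after the data were seen), 2 with median-of-ratios factors and with rescaling without the 50 most abundant genes, and 3 with a pseudocount of 0.1 FPKM, which also made 2 members higher instead of 0. For fetal HSC over early EMP, the pseudocount of 0.1 FPKM made 2 members higher instead of 0, and the count lower (3 as reported) was 1 with a pseudocount of 5 FPKM and at 4-fold, 2 with the filter at 5 FPKM, with median-of-ratios factors and without Snap91 and Stxbp3-ps, and 4 with the pseudocount of 0.1 FPKM. For fetal HSC over late EMP, the count lower (1 as reported) was 2 with a pseudocount of 0.1 FPKM, 0 with a pseudocount of 5 FPKM and 0 at 4-fold. The filter at 5 FPKM and the set without Snap91 leave that gene out by construction; the cause of the other moves was not tested. Rescaling to the same total multiplies levels by 0.988, 1.028 and 0.986 for early EMP, late EMP and fetal HSC, and median-of-ratios factors by 0.98, 0.945 and 1.038; shares within a library are unaffected. Of 1044 recomputed log2 differences of single members, 33 passed the line set for a move and 1011 did not. That line was wider than the counting error of the difference. Some of the 1011 moved by more than that error, such as Vamp8 for late EMP over early EMP rescaled to the same total. Many of the 1011 could not move. Dropping the filter, filtering at 5 FPKM, keeping genes with a symbol only and leaving out Snap91 and Stxbp3-ps only choose genes. These settings leave each member's log2 difference as it was, so only the other pseudocounts and the scalings could move one. Vamp7 had no counting error to be set against. The 1011 are therefore not a measure of stability. Differences between libraries carry no replicate error, and fragment numbers cover counting error only.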

Other observations

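Among genes with a symbol whose highest value was 1 to 5 FPKM, 14% were at least 2-fold lower in fetal HSC than in early EMP and 11.6% at least 2-fold higher, while among genes that reached 20 FPKM the shares were 3.65% and 5.64%.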
